A study of Mus musculus with 6 samples.

Results

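The genes described here are 10 immediate early and dissociation response genes, Egr1, Fos, Fosb, Fosl2, Jun, Junb, Atf3, Dusp1, Ier2 and Nr4a1. They were taken by symbol from the deposited tables, which list 24421 gene rows per library. All 10 were found, and all 10 passed the filter on low values (a mean over the libraries of 1 or more normalized counts). The libraries are RNA-seq of sorted olfactory bulb cells that carried TurboRFP, 3 from control and 3 from Sox9 KO animals, each library from a single mouse. All 6 mice carried the same virus, AAV-GFAP-iCre-P2a-TurboRFP, in which the GFAP promoter drives both the recombinase Cre and the red fluorescent protein used for sorting. KO mice were Sox9fl/fl, so that Cre removed the floxed part of Sox9 from transduced cells. Controls were C57BL/6J by the series text, WT by genotype label and Sox9+/+ by the methods of the study, so that Cre met no floxed allele in them. The strain label was C57BL/6 in both groups, and all 6 mice were male by the methods. Their age is not given in the labels, and the methods name adult mice unless otherwise described. The cells were collected 4 weeks after the injection. Cre and TurboRFP depended on the GFAP promoter and the injection site, and bulbs were digested with papain before the sort.

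Immediate early genes are transcribed within minutes of a stimulus without new protein synthesis, because the factors that switch them on, SRF with its ternary complex partners and CREB, are already present and are activated by MAP kinases, calcium and cAMP. Many of their products are transcription factors themselves. Fos, Fosb and Fosl2 pair with Jun and Junb to form AP-1, a dimer that binds regulatory DNA, and others, such as the phosphatase Dusp1, shut the signal off again. In the brain they are best known as reporters of neuronal activity, but glia and microglia use the same genes, and enzymatic dissociation of tissue at a warm temperature is known to induce them in many cell types.

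The libraries held between 18242129 and 86906527 reads on genes, and 1 read was worth between 0.395 and 1.58 normalized counts, the deposited unit, which is the read count divided by 1 size factor per library. Sox9 was read between 4921 and 6562 normalized counts in the controls and between 52.6 and 64.3 in KO, the direction that the labels imply. By the study Sox9 is an astrocyte gene in the bulb, and astrocyte markers fell in the same libraries. The part of the deletion in the fall of Sox9 was not tested. The libraries also differed in the levels of cell type markers. The 12 astrocyte markers summed to normalized counts of 544648 to 610700 in control libraries and of 39006 to 50942 in KO libraries, and all 12 were lower in KO. The 12 microglia markers summed to 185788 to 208895 in control libraries and to 659524 to 769229 in KO libraries, and all 12 were higher in KO. The 15 neuron markers summed to 26820 to 33857 in control libraries and to 3802 to 6377 in KO libraries, with all 15 below 0 in log2 fold change and 14 of 15 called lower. None of these astrocyte, microglia and neuron markers was at 0 in any library. In bulk RNA of this kind, fewer cells of a type and less RNA per cell cannot be told apart. Of 18413 genes tested, 4090 (22.2%) were called higher and 5299 (28.8%) lower in KO, where a call needs 1.5-fold and an adjusted p under 0.05. The lower genes made up 56.4% of the calls on the deposited scaling, 43.2% after quantile normalization, 67.8% with equal library totals and 71.5% with equal totals leaving out the ribosomal precursor Rn45s.

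On the deposited scaling, all 10 genes rose in KO, by a median of 1.71 on the log2 scale, while the median of all genes tested was −0.07. The rise ran from 2.12-fold for Jun, a subunit of AP-1, to 5.63-fold for Atf3, a stress-induced relative of the AP-1 subunits. Each of the 3 KO libraries stood above each of the 3 control libraries for all 10 genes. Together the 10 genes took 0.487% ± 0.0448 of the control reads on genes and 1.37% ± 0.147 of the KO reads (SD, n = 3). The 10 of 10 called higher stand beside 22.2% of all genes tested, and the 10 of 10 without overlap between groups stand beside 32.4% of all genes that did not overlap in that direction. When each library was instead scaled to its summed microglia markers, a scale chosen after seeing the data, none of the 10 genes was called higher and 1, Jun, was called lower, with a median of −0.20, beside 0.994% of all genes called higher and 80.1% called lower on that scale, and Atf3 was the one gene above 0 with an adjusted p under 0.05. That scale multiplies all genes of a library by the same factor, and the median of all genes on it was −1.87. The part of the microglia markers in the rise was not tested.

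**Figure D1:**
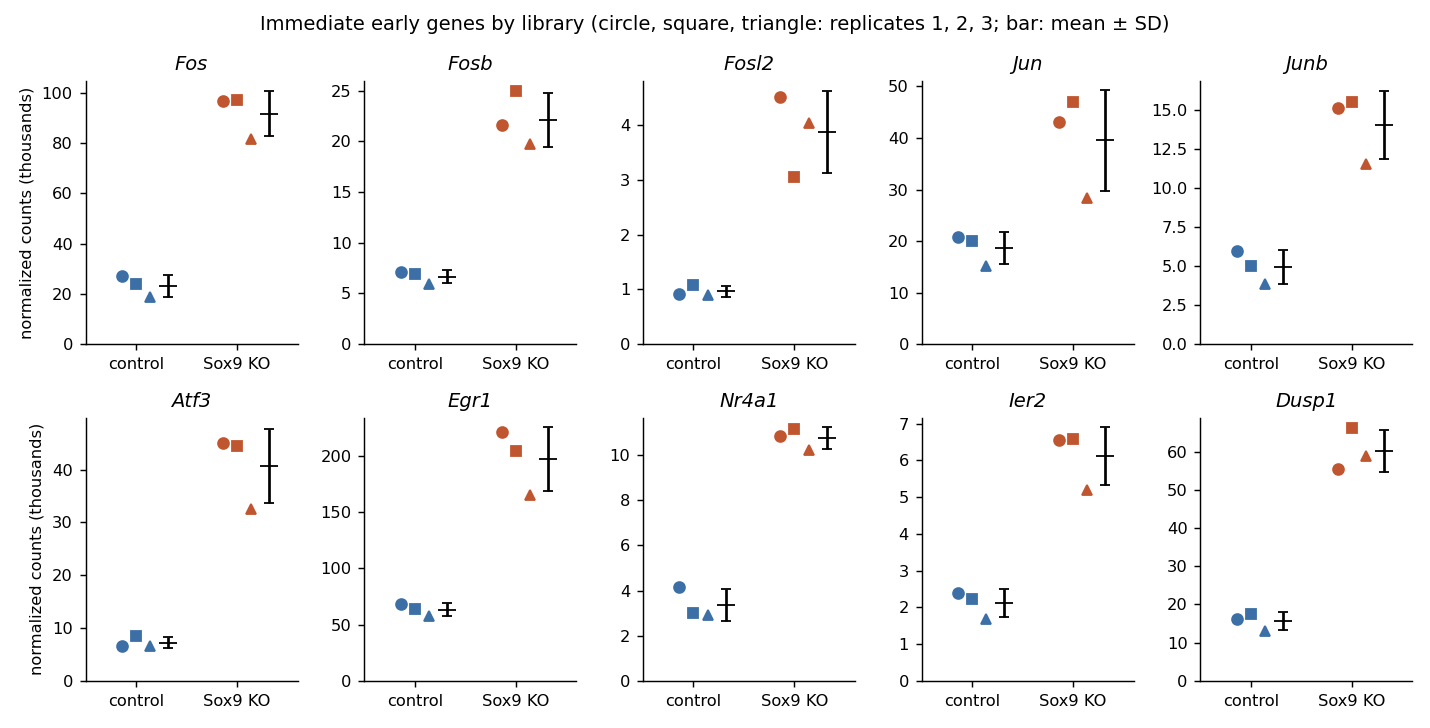
Normalized counts (linear axes from 0, each gene on its own scale) of the 10 immediate early genes in each control (blue) and Sox9 KO (orange) library, with circles, squares and triangles for replicates 1, 2 and 3 and a bar for the mean ± SD. Every KO library lies above every control library on this scaling, from a gap of 1.36-fold for Jun to 3.86-fold for Atf3 between the lowest KO and the highest control library.

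The sequences below show elements known from the textbook regulation of immediate early genes, as context for the 10 genes. No measurement here bears on their use. RefSeq promoters (GRCm38.p6, 250 bases before to 50 bases after the start of transcription) were at hand for 8 of the 10 genes, without Egr1 and Ier2. They were searched on both strands for the cAMP response element (CRE), to which CREB and ATF proteins bind, written TGACGTCA, and for its short form, TGACG, which every full element also contains. The full element was present in 1 of 8 promoters, that of Dusp1, and in 1.79% of all 32851 promoters in the table. The short form was present in 6 of 8 promoters, in 21 of 37 promoters of other immediate early genes and in 20.8% of all promoters. The 30 bases around 1 element in each of the 6 genes are given on the strand of the gene, with the CRE letters in capitals. The Fos, Fosb and Junb windows lie upstream of every GENCODE transcript of the gene, though the Fosb window is inside the longer RefSeq span printed with Fosb, the Atf3 window reaches partly into an exon, and the Dusp1 and Nr4a1 windows lie in introns of longer transcripts.
Dusp1, chr17:26508597-26508626, minus strand: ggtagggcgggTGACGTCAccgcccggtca
Fos, chr12:85473811-85473840, plus strand: cagttccgcccagTGACGtaggaagtccat
Fosb, chr7:19310089-19310118, minus strand: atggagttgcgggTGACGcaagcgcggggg
Junb, chr8:84978838-84978867, minus strand: cgcttcctgacagTGACGcgagccgcctcc
Atf3, chr1:191183324-191183353, minus strand: attaatagcattaCGTCAgcctgggattgg
Nr4a1, chr15:101266793-101266822, plus strand: gcccctctccatgCGTCAcggagcgcttaa
In Atf3 and Nr4a1 the short form reads CGTCA because it lies on the other strand. The Fos element begins 66 bases before the start and is followed within the same promoter by a TATA box, a core element that places the transcription start, 33 bases before it. Nr4a1 holds 4 short elements on the other strand, and Dusp1 holds a separate short element besides the full one.

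The element bound by EGR proteins, GCGNGGGCG on either strand, was present in 3 of 8 promoters, those of Fosb, Fosl2 and Nr4a1, in 8 of 37 promoters of other immediate early genes and in 5.55% of all promoters. It is shown, with its letters in capitals, because Egr1 is one of the 10 genes. The Fosl2 window lies in an exon and the Nr4a1 window in an intron of longer transcripts, and the Fosb window overlaps the one above.
Fosl2, chr5:32136382-32136411, plus strand: tccggctgcgcGCGGGGGCGgaagggcgcg
Fosb, chr7:19310077-19310106, minus strand: gtgacgcaagcGCGGGGGCGggtcccggag
Nr4a1, chr15:101266775-101266804, plus strand: tgcgtcagtggCGCCCCCGCccctctccat
The AP-1 element TGANTCA was in none of the 8 promoters and in 7.81% of all promoters, and the CArG box bound by SRF was in none of the 8, in 4 of 37 promoters of other immediate early genes and in 1.63% of all. TATAAA, searched on the strand of the gene, was in 2 of 8, Fos and Junb, in 6 of 37 promoters of other immediate early genes and in 8.32% of all. The Junb match begins at the annotated start itself and not before it as in Fos. These are matches of letters in these windows, around 1 start for each of the 8 genes, and say nothing of sites outside them. The 37 promoters of other immediate early genes come from a list of 31 genes, so some of those genes have more than 1 promoter.

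Among the Fos subunits of AP-1, Fos itself was the most abundant. Fos forms the classical AP-1 dimer with Jun and lies on chromosome 12 (85473890 to 85477274, plus strand, 4 exons in Fos-201). It was counted at 27176, 23796 and 18672 normalized counts in the controls (replicates 1, 2 and 3, as in all such lists here) and at 96567, 96999 and 81448 in KO. No KO library overlapped with a control. The mean went from 23215 ± 4282 to 91671 ± 8856 (SD, n = 3), a log2 fold change of 1.99 (SE 0.15, 95% interval 1.67 to 2.32, adjusted p = 1e-06 by limma).

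Fosb, whose stable splice form accumulates in neurons on repeated stimulation, lies on chromosome 7 (19302696 to 19310118, minus strand, 4 exons). Its counts were 7105, 6946 and 5914 (normalized) in the controls and 21588, 24986 and 19734 in KO. The controls were close to each other, and no KO library came near them. Fosb rose by 1.73 on the log2 scale (SE 0.11, adjusted p = 4.6e-07 by limma). Fosl2, the Fos relative with a later and longer course after most stimuli, lies on chromosome 5 (32136472 to 32157840, plus strand, 4 exons). Its normalized counts were 919, 1078 and 898 in the controls and 4509, 3050 and 4041 in KO. KO replicate 2 was the lowest KO library here and not replicate 3, which was the lowest for most of the other genes. Fosl2 rose by 1.99 on the log2 scale (SE 0.14, adjusted p = 1e-06 by limma), as much as Fos, from a far lower level per kilobase of transcript.

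The Jun subunits rose less on the same scaling. Jun, which can pair with itself as well as with Fos proteins, is a gene of 1 exon on chromosome 4 (95049036 to 95052222, minus strand). An RNA on the other strand, Junos, overlaps its exon, and since the sources used here do not state the strand setting, the reads of the pair cannot be told apart. Jun was counted at 20843, 19966 and 15195 normalized counts in the controls and at 43151, 47012 and 28414 in KO. KO replicate 3 lay only 1.36-fold above the highest control, the narrowest gap among the 10 genes. The mean went from 18668 ± 3040 to 39526 ± 9815 (SD, n = 3), a log2 fold change of 1.06 (SE 0.19, 95% interval 0.64 to 1.48, adjusted p = 0.00063 by limma). After quantile normalization the log2 fold change of Jun was 0.43 and the call was lost (adjusted p = 0.063 by limma), and on the microglia marker scale it was −0.85 (adjusted p = 0.00052).

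Junb, which acts more weakly than Jun on many AP-1 targets and restrains it at some, is a gene of 1 exon on chromosome 8 (84976909 to 84978748, minus strand). The controls held 6009, 5004 and 3849 normalized counts of it and the KO libraries 15156, 15518 and 11579. In both groups replicate 3 was the lowest, as for Jun. Junb rose by 1.52 on the log2 scale (SE 0.16, adjusted p = 1.8e-05 by limma), and on the microglia marker scale its difference was −0.39, under 1.5-fold.

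Atf3, a bZIP factor that is nearly silent in resting cells and is induced by injury and stress, rose the most of the 10 genes. It lies on chromosome 1 (191170296 to 191183333, minus strand, 4 exons). Atf3 was counted at 6684, 8443 and 6538 normalized counts in the controls and at 45003, 44496 and 32555 in KO. Even the lowest KO library was 3.86-fold above the highest control. The mean went from 7222 ± 1059.9 to 40685 ± 7045 (SD, n = 3), a log2 fold change of 2.49 (SE 0.15, 95% interval 2.16 to 2.81, adjusted p = 2.1e-07 by limma). It was the one gene of the 10 whose KO libraries stayed above the controls per microglia marker count, with a log2 difference of 0.57 on that scale (adjusted p = 0.0041 by limma), just under 1.5-fold.

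Egr1, a zinc finger factor induced by growth factors and by synaptic activity, was among the most abundant RNAs of the whole table, ranking 8 by mean normalized count. It lies on the plus strand of chromosome 18 and has 2 exons. Egr1 was counted at 68478, 64071 and 57419 normalized counts in the controls and at 221098, 204128 and 165382 in KO. It took 0.211% ± 0.0131 of the reads on genes in control and 0.554% ± 0.0604 in KO (SD, n = 3). The log2 fold change was 1.63 (SE 0.15, 95% interval 1.31 to 1.95, adjusted p = 4.4e-06 by limma), and on the microglia marker scale it was −0.28 (adjusted p = 0.12).

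Nr4a1, an orphan nuclear receptor that needs no ligand and is governed by its own transcription, lies on chromosome 15 (101253902 to 101274795, plus strand, 8 exons in Nr4a1-202). Its normalized counts were 4174, 2992 and 2910 in the controls and 10848, 11174 and 10242 in KO. The KO libraries lay within 1.09-fold of each other, the tightest group among the 10 genes, while the controls spread over 1.43-fold. Nr4a1 rose by 1.70 on the log2 scale (SE 0.13, adjusted p = 1.6e-06 by limma).

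Dusp1, the phosphatase that inactivates p38, JNK and ERK and so ends the signal that induces it, lies on chromosome 17 (26505591 to 26508472, minus strand, 4 exons in Dusp1-202). It was counted at 16235, 17500 and 12990 normalized counts in the controls and at 55533, 66190 and 58744 in KO. For this gene KO replicate 1 was the lowest KO library, at 3.17-fold the highest control. Dusp1 rose by 1.96 on the log2 scale (SE 0.13, 95% interval 1.67 to 2.24, adjusted p = 4.6e-07 by limma). Ier2, a small nuclear protein named for its immediate early induction, is a gene of 1 exon on chromosome 8 (84661331 to 84662852, minus strand). Ier2 reached 2404, 2241 and 1682 normalized counts in the controls and 6560, 6572 and 5206 in KO. Ier2 rose by 1.54 on the log2 scale (SE 0.14, adjusted p = 6.3e-06 by limma), with all KO libraries above all controls.

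Within each group the same library was the lowest for most of the 10 genes, and the share of all genes with that lowest library is not given here. Control replicate 3 was the lowest control for 10 of 10 genes, and KO replicate 3 was the lowest KO library for 8 of 10, the exceptions being Fosl2 and Dusp1. The highest control was replicate 1 for 7 genes and replicate 2 for 3. Rn45s took 18.3% of the reads on genes in control replicate 3 and 14.2% in KO replicate 3, the lowest share of each group. These 2 libraries also had the fewest reads on genes of their group, 18242129 and 22469211. The microglia marker sum was lowest among KO libraries in KO replicate 3 (659524), but not among controls in control replicate 3 (188057). Whether any of these bears on the order of the replicates was not tested. With each library left out in turn, all 10 genes were still called higher, beside 3825 to 4048 of all genes. The median log2 fold change of the 10 genes stayed between 1.63 and 1.82. For a single gene, the two-sided exact permutation test over the 6 libraries gave p = 0.1 for each of the 10, which is the smallest value that 3 against 3 allow.

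Per kilobase of the annotated transcript, so that genes can be compared with each other, the order of the levels was nearly the same in both groups. In control, Egr1 led at 14122 ± 1242 normalized counts per kb, with Fos at 11013 ± 2031, and their libraries overlapped. Dusp1 at 7827 and Jun at 5854 came next and overlapped with each other, as did Atf3 at 3639.95 with Junb at 2739. Fosb at 1759.6, Ier2 at 1386 and Nr4a1 at 1315 followed, each overlapping with its neighbour, and Fosl2 was lowest at 148 per kb, apart from all of them. In KO, Egr1 at 43905 ± 6369 and Fos at 43487 ± 4201 per kb again led and overlapped. Dusp1 followed at 30229, and Atf3 at 20506 now stood above Jun at 12394, with no overlap between any of these 3 neighbours. Junb at 7786 overlapped with Fosb at 5844, Nr4a1 at 4213 overlapped with Ier2 at 4016, and Fosl2 at 592 was again the lowest.

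Fos made up a larger share and Jun a smaller share of the AP-1 transcripts in each KO library than in any control. Shares within a library do not depend on how libraries are scaled to each other. They were computed per kb over the 4 Fos and 3 Jun family genes. They may still depend on the mix of cells in a library, whose part was not tested. Reads of Jun, Fosl1 and Jund may also include those of overlapping genes on the other strand. Fos made up 50.8%, 49.2% and 49.6% of these transcripts in the controls and 60.7%, 58.9% and 63.6% in KO, in the order of the replicates. Jun made up 25.8%, 27.3% and 26.7% in the controls and 17.9%, 18.9% and 14.7% in KO. The groups did not overlap for either gene, and the differences of means were 11.2 percentage points for Fos and −9.43 for Jun. Junb differed by −1.49 points, from 12.4% ± 0.642 to 10.9% ± 0.304 (SD, n = 3), again without overlap. Fosb (8.06% and 8.20%), Fosl2 (0.681% and 0.843%) and Jund (2.27% and 1.87%) overlapped between groups. The Fos family as a whole made up 58.8% ± 0.567 in control and 70.1% ± 2.72 in KO. The two-sided exact permutation test gave p = 0.1, the smallest possible, for Fos, Jun, Junb, Fosl1 and the Fos family, and p = 0.9, 0.3 and 0.2 for Fosb, Fosl2 and Jund. The shares rest on the annotated transcript lengths, and without division by length the difference of Jun was −11.2 points and that of Junb −0.80.

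**Figure D2:**
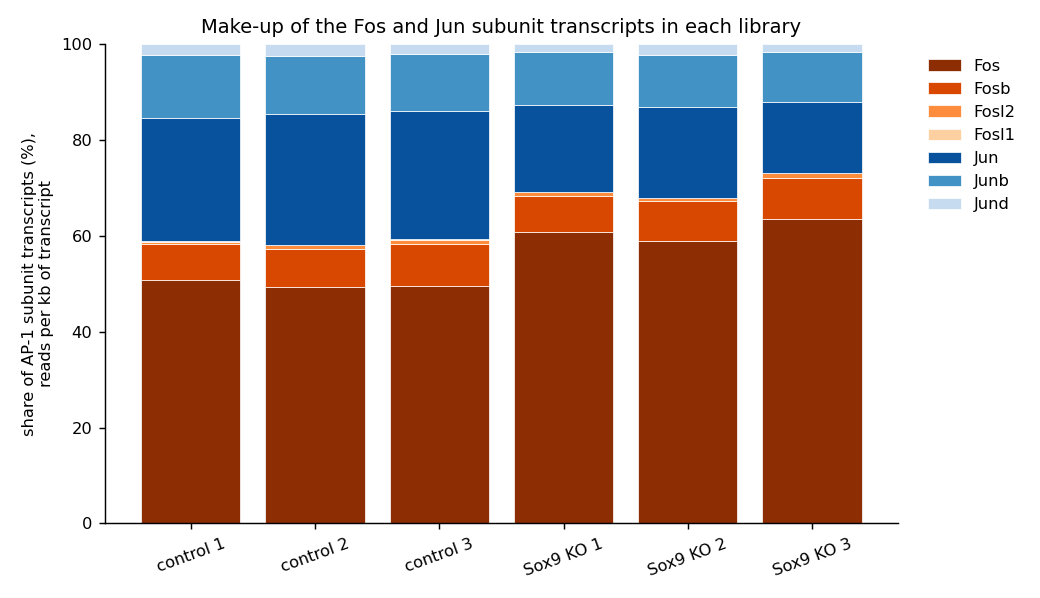
Share of each AP-1 subunit (percent of the summed reads per kb of the 4 Fos and 3 Jun family genes, stacked to 100) in each of the 6 libraries, Fos family in orange shades and Jun family in blue. The boundary between the families sits between 58.2% and 59.3% in the controls and between 67.9% and 73.2% in KO.

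Counted against the microglia markers, 5 of the 10 genes overlapped between the groups, 4 were lower in every KO library than in any control, and 1, Atf3, was higher, beside 82.0% of all genes without overlap lower and 1.56% without overlap higher. Per 1000 normalized counts of the 12 summed markers, Fos stood at 130, 128 and 99.3 in the controls and at 126, 126 and 123 in KO, so that the groups overlapped. Fosb, Fosl2, Dusp1 and Nr4a1 overlapped as well, which does not show that they moved as the markers did. Egr1 stood at 326 ± 19.8 in control and 268 ± 18.5 in KO, Jun at 96.0 ± 13.7 and 53.4 ± 9.31, Junb at 25.4 ± 4.36 and 19.1 ± 1.40, and Ier2 at 10.8 ± 1.66 and 8.32 ± 0.372, each with all KO libraries below all controls (SD, n = 3). Atf3 stood at 37.4 ± 7.10 in control and 55.2 ± 5.11 in KO, with all KO libraries above. The two-sided exact permutation test gave p = 0.1, the smallest it can reach here, for each of these 5 genes. The microglia markers themselves had log2 fold changes from 1.43 to 2.33 on the deposited scaling. Of the 10 genes, 8 lay inside that range, with Jun below it and Atf3 above. The share of all genes inside that range is not given here, so the count is not a result about the 10 genes.

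**Figure D3:**
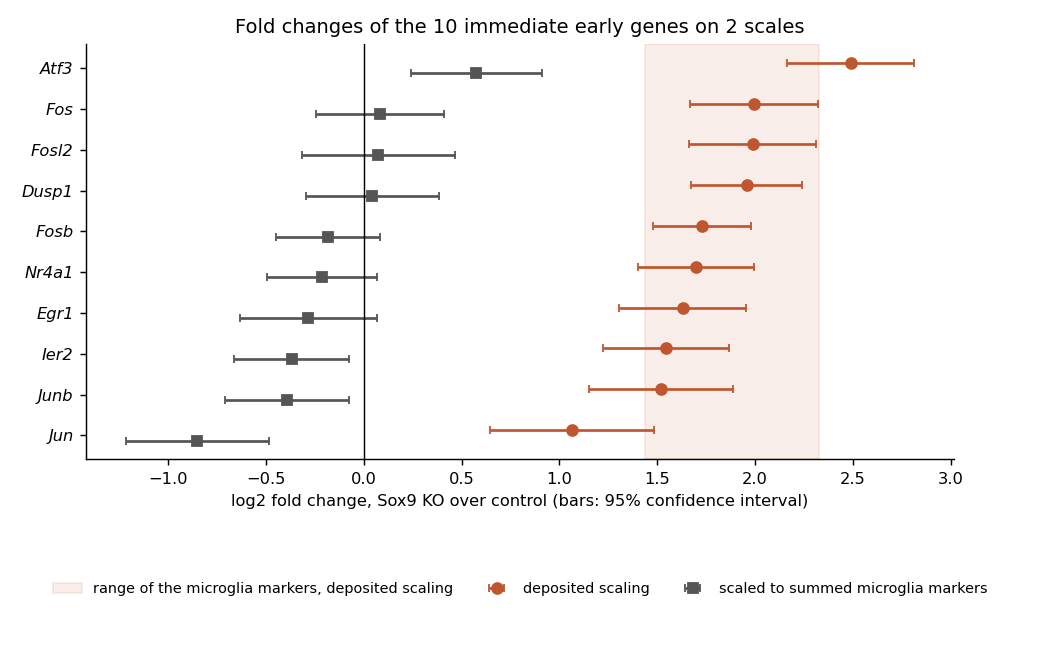
Log2 fold change of KO over control with its 95% confidence interval (x axis, log2 units) for the 10 genes on the deposited scaling (orange circles) and with each library scaled to the summed microglia markers (grey squares); the shaded band is the range of the 12 microglia markers on the deposited scaling. On the deposited scaling every interval lies above 0, while on the marker scale the values run from −0.85 for Jun to 0.57 for Atf3.

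Other genes of the immediate early response mostly rose too on the deposited scaling. Of 31, 22 were called higher and 4 lower, beside 22.2% and 28.8% of all genes, and 5 were not called. Their median log2 fold change was 1.41. On the microglia marker scale 0 were called higher and 13 lower, beside 0.994% and 80.1% of all genes. The most abundant were Egr2, a relative of Egr1, Btg2, an antiproliferative gene induced by p53 and growth factors, and Egr3. Egr2 was counted at 9599.5, 7493 and 7876 normalized counts in the controls and at 42586, 30270.2 and 51226 in KO, and rose by 2.29 on the log2 scale (SE 0.18, adjusted p = 1.5e-06 by limma). Btg2 rose by 1.78 and Egr3 by 1.83. Nr4a3, the sister receptor of Nr4a1, rose from 906 ± 130 to 4714 ± 1314 normalized counts (2.35), and Irf1, an interferon-responsive factor, by 2.34. Cyr61, a secreted matrix protein induced by stretch and growth factors, fell from 1166 ± 105 to 202 ± 81.9 normalized counts (SD, n = 3; −2.62, SE 0.28). Gadd45g, a growth arrest gene, fell by 2.24 on the log2 scale.

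Of 18 other AP-1, ATF and Maf genes, 10 were called higher and 3 lower on the deposited scaling, beside 22.2% and 28.8% of all genes. The other 5 were not called, and the median was 0.76. On the microglia marker scale 1 was called higher and 12 lower, beside 0.994% and 80.1% of all genes. Maf, a large bZIP factor expressed in macrophages and lens, rose from 5181 ± 702 to 16270.5 ± 1112 normalized counts (1.66, SE 0.11, adjusted p = 5.1e-07 by limma). Batf, an AP-1 partner in leukocytes, rose from 31.2 ± 4.93 to 232 ± 22.7 normalized counts (2.86, SE 0.25) and was the one gene of this list also called higher on the microglia marker scale. Batf2 rose by 2.36. Fosl1, a Fos relative, was counted at 52.6, 88.1 and 61.5 in the controls (normalized counts) and at 0, 7.90 and 0 in KO, and its fitted value of −5.01 (SE 0.81) rests partly on the added pseudocount. Its exons overlap Ccdc85b on the other strand, as those of Jund overlap Gm11175. Atf5 fell by 1.46 on the log2 scale, and Atf7 at 0.53 was under 1.5-fold.

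The regulators upstream of immediate early genes are kinases, SRF cofactors and CREB genes. Of 27, 14 were called higher and 3 lower on the deposited scaling, beside 22.2% and 28.8% of all genes. The other 10 were not called, and the median was 0.59. On the microglia marker scale 0 were called higher and 25 lower, beside 0.994% and 80.1% of all genes. Ep300, an acetyltransferase recruited by CREB, rose from 6932 ± 351 to 17310.3 ± 893 normalized counts (1.32, SE 0.09), and its relative Crebbp by 0.69. The ribosomal S6 kinases Rps6ka1 and Rps6ka3 rose by 1.84 and 1.12, and Crem, a CREB relative, by 1.62. Mapk10, the JNK isoform found mainly in neurons, fell from 1860 ± 135 to 331 ± 86.3 normalized counts (−2.51, SE 0.17), and the ternary complex factor Elk1 fell by 1.89 on the log2 scale. With equal library totals the count called higher was 9.

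Feedback inhibitors close the response as Dusp1 does. Of 21 genes, 13 were called higher and 6 lower on the deposited scaling, beside 22.2% and 28.8% of all genes. The other 2 were not called, and the median was 0.71. On the microglia marker scale 0 were called higher and 15 lower, beside 0.994% and 80.1% of all genes. Zfp36, which destabilizes the mRNAs of cytokines and of Fos, rose from 32519 ± 2487 to 123476 ± 17712 normalized counts (1.92, SE 0.13, adjusted p = 7e-07 by limma), and Zfp36l1 rose by 1.31. Tnfaip3, an inhibitor of NF-κB signaling, rose from 5618 ± 433 to 25098 ± 2331 normalized counts (2.16, SE 0.10). Spry2 and Spry4, inhibitors of receptor tyrosine kinase signaling, fell from 1841 ± 437 to 80.0 ± 6.66 and from 1789 ± 214 to 114 ± 36.6 normalized counts, with log2 fold changes of −4.48 and −4.00.

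A separate list of 11 genes known for induction by neuronal activity mostly fell. Immediate early genes such as Fos and Egr1 are also known as reporters of neuronal activity, and they rose on the deposited scaling. The list thus does not stand for all genes that activity induces. On the deposited scaling none of 11 was called higher and 8 were called lower, beside 22.2% and 28.8% of all genes. The other 3 were not called, and the median was −2.15. Calls by limma at an unadjusted p under 0.05, by edgeR and by DESeq2 also gave 0 higher. On the microglia marker scale all 11 were called lower, beside 80.1% of all genes. Scg2, a neuropeptide precursor, fell from 2000 ± 260 to 761 ± 117 normalized counts (−1.40, SE 0.14). Arc, a regulator of synaptic receptors, fell from 552 ± 98.6 to 86.5 ± 20.1 normalized counts (−2.67, SE 0.22, adjusted p = 2.3e-06 by limma). Npas4 and Bdnf, an activity-dependent factor and a neurotrophin, both fell by 3.44 on the log2 scale. Homer1, a postsynaptic scaffold, stood at 1025 ± 147 and 1059 ± 89.3 normalized counts (0.05, SE 0.13). The neuron markers fell with these genes, with a median of −2.67 on the log2 scale, and their part in the fall was not tested.

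**Figure D4:**
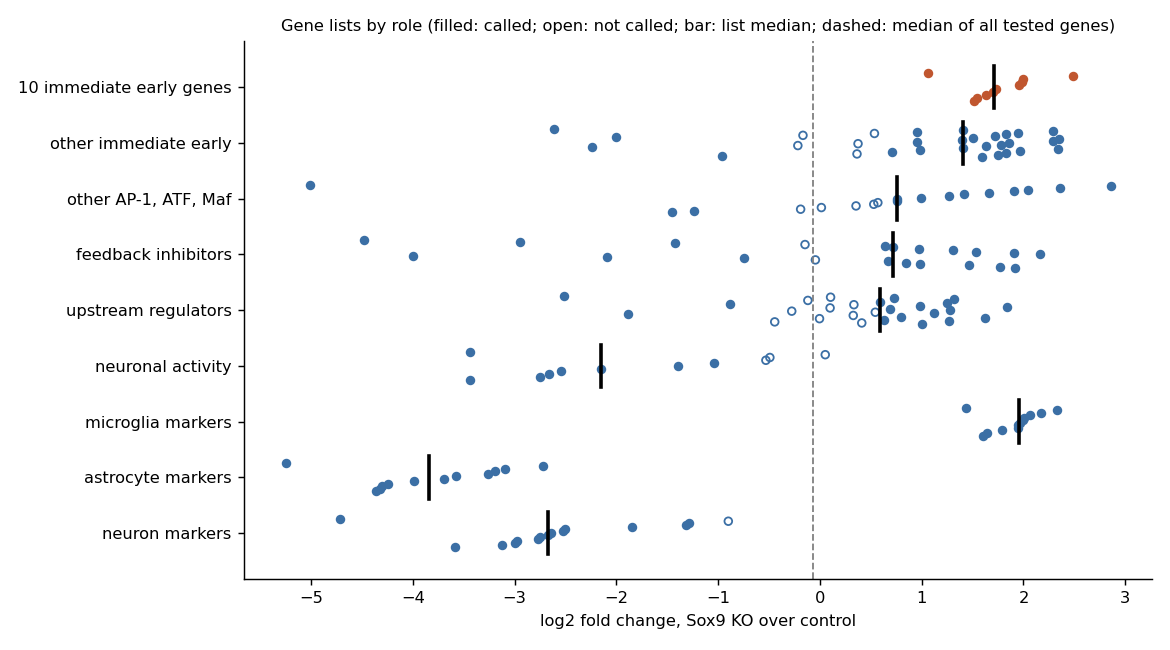
Log2 fold change of KO over control (x axis, deposited scaling) of each gene in 9 lists, with filled points for called genes, open points for the others, a black bar for the list median and a dashed line at −0.07, the median of all genes tested. On this scaling the 10 immediate early genes (orange) and the microglia markers lie wholly to the right of 0, the astrocyte and neuron markers wholly to the left, and the other lists on both sides.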

How the data were processed

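RNA-seq was made from cells sorted from the olfactory bulbs of 6 mice, with groups and replicate numbers taken from the sample labels. According to the methods of the study and the submitters' processing notes, the authors mapped reads to mm10 with STAR v2.5.0a, obtained gene counts through GenomicAlignments and GenomicFeatures, and scaled these by DESeq2 v1.20.0. The sources used here do not state the annotation or the strand setting, and the study states that cells were sorted into lysis buffer, with purity judged from marker genes in the RNA-seq and not after the sort. The deposited signal values, 1 per gene and library, are named RPM but behave as read counts over a size factor of the library, since 100% were whole multiples of the smallest step (within 0.01 read). They are called normalized counts. The step of KO replicate 1 is 0.993, and its reads were recovered from the full digits. The deposited tables had 0 unused columns.

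Genes with a mean of 1 or more (18413 of 24421) were compared in all 6 libraries by limma 3.58.1 under R 4.3.3, using log2(normalized count + 1), a variance trend, no covariate and two-sided p-values adjusted by the Benjamini-Hochberg method over all genes tested. A gene was called at an adjusted p of 0.05 and 1.5-fold. Fold changes are KO over control on the log2(value + 1) scale, which understates changes of low genes. edgeR 4.0.16 (quasi-likelihood test) and DESeq2 1.42.0 were run on the recovered reads as alternatives. The fits were tested on simulated data in which far fewer genes changed than are called here, equally in both directions. That test therefore does not bear on the choice of scaling. Precision is limited by 3 libraries per group and by depth, where 1 read is worth up to 1.58 normalized counts.

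Coordinates and promoters are RefSeq's for GRCm38 (mm10), and exons and transcript lengths are from GENCODE M21 (longest principal coding transcript). The 10 genes and the other lists, written from general knowledge, were chosen with earlier results of these data known. Genes named from each other list are the 3 with the highest mean and the 2 called genes with the largest change in each direction, and from marker lists at most 2. Jund, Kcnj8 and Des lie outside this rule, and the values of 1 gene that it would name are not reported here. Scaling to the 12 microglia markers was chosen after seeing the data.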

Additional observations from a re-analysis of the deposited data

How the results depend on the processing

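Each of the 10 immediate early genes was higher in KO and called so with pseudocounts of 0.1 and 5, no filter or a minimum mean of 10, equal library totals with and without Rn45s, no variance trend, edgeR, DESeq2, and each library left out. Across these settings, between 2630 (equal totals without Rn45s) and 4340 (edgeR) of all genes were called higher, out of 15561 to 24421 tested. Other scalings moved the median of all genes from −0.07 to 0.20 (quantile), −0.29 (equal totals), −0.37 (equal totals without Rn45s) and −1.87 (microglia markers), and that of the 10 genes to 1.30, 1.47, 1.39 and −0.20. Under quantile normalization 9 of the 10 genes were called, without Jun (0.43), beside 5380 of all 18413 genes called higher. Scaling to the microglia markers put the estimates of Egr1 (−0.28), Fosb (−0.18), Jun (−0.85), Junb (−0.39), Ier2 (−0.37) and Nr4a1 (−0.22) below 0. Of these, only Jun was called lower. The adjusted p by limma was under 0.05 for Jun, Junb and Ier2, and not for Egr1, Fosb and Nr4a1. Fos stood at 0.08, Fosl2 at 0.07, Dusp1 at 0.04 and Atf3 at 0.57, none called higher. On that scale 183 of all genes were called higher and 14745 lower, with 0 and 1 of the 10 genes, 0 and 13 of the other immediate early genes, 1 and 12 of the other AP-1, ATF and Maf genes, 0 and 25 of the upstream regulators, 0 and 15 of the feedback inhibitors, 0 and 17 of the heat shock genes, 1 and 9 of the immune activation genes and 0 and 5 of the AP-1 target genes. By its construction this scale sets the summed markers equal in all libraries.

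With equal totals 9 upstream regulators were called higher. With equal totals without Rn45s 2630 of all genes were called higher, 9 upstream regulators higher and 5 lower, and 5 heat shock genes lower. Under quantile normalization 5 upstream regulators were called lower, and 3 heat shock genes higher and 5 lower. Without the fold threshold 5 upstream regulators and 5 heat shock genes were called lower. The 1 immune activation gene called lower, Cxcl1, was not called (0 lower) without the filter, without the trend, under quantile normalization or by edgeR, and leaving out 1 library gave 0 to 1. The cause of these shifts was not tested.

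Without division by transcript length, the differences in AP-1 share were −0.12 points for Fosl1, 0.50 for Fosl2, −11.2 for Jun and −0.80 for Junb. The small difference of Fosb (0.14 points) ran from −0.18 to 0.49 when 1 library was left out, and was below 0 without control replicate 1 (−0.18) and without KO replicate 3 (−0.05). With 1 library left out, calls over all genes ran from 3825 to 4048 higher and from 4943 to 5153 lower.

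Same-numbered replicates did not deviate together across all genes tested (correlations of −0.05, −0.01 and −0.01). Differently numbered ones had correlations from −0.02 to 0.03. These values cannot show whether same-numbered libraries were handled together. The replicate block gave 4048 genes higher and 5227 lower, and 10 of the 10 genes higher.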

Other observations

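Further lists touch on stress and on what AP-1 is known to switch on. On the deposited scaling their counts stand beside 22.2% of all genes called higher and 28.8% called lower. On the microglia marker scale they stand beside 0.994% of all genes called higher and 80.1% called lower. Of 17 heat shock and chaperone genes, which respond to misfolded protein and warmth, 6 were called higher, 3 lower and 8 not called on the deposited scaling, with a median log2 fold change of 0.21, against 0 higher and all 17 lower on the microglia marker scale. Hspa8, a constitutive chaperone, rose from 44864 ± 5365 to 85979 ± 10327 normalized counts (SD, n = 3; 0.94, SE 0.13). The inducible genes Hspa1b and Dnajb1 rose by 1.01 and 0.97, and Hspa5, the chaperone of the endoplasmic reticulum, by 0.70. Hsp90ab1 stood at −0.01 (SE 0.14). The small heat shock genes Cryab and Hspb1 fell by 2.42 and 1.59 on the log2 scale, Cryab from 2557 ± 313 to 481 ± 111 normalized counts.

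Of 18 immune activation genes that microglia and macrophages induce, 11 were called higher, 1 lower and 6 not called, with a median of 1.29, against 1 higher and 9 lower on the microglia marker scale. Il1b, the precursor of the cytokine interleukin-1β, was counted at 6265, 6078 and 6849 normalized counts in the controls and at 68504, 47915 and 51385 in KO, and rose by 3.11 on the log2 scale (SE 0.13, adjusted p = 3.3e-08 by limma). It was the one gene of this list also called higher on the microglia marker scale. The chemokine genes Ccl3 and Ccl4 rose by 2.18 and 2.0 and the surface protein gene Cd83 by 2.41, and Cxcl1, a chemokine for neutrophils, stood at −1.42 (SE 0.53, adjusted p = 0.037 by limma).

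Of 12 textbook AP-1 target genes, 5 were called higher, 3 lower and 4 not called, with a median of 1.12, against 0 higher and 5 lower on the microglia marker scale. Cd44, a hyaluronan receptor, rose by 1.98 and the macrophage elastase gene Mmp12 by 2.14. Timp1, an inhibitor of matrix metalloproteases, was counted at 97.9, 189 and 340 normalized counts in the controls and at 7.94, 5.92 and 9.11 in KO, and fell by 4.44 on the log2 scale (SE 0.46). Vegfa fell by 3.37. Spp1 and Ccnd1 overlapped between groups, at 0.90 (SE 0.49) and −0.11 (SE 0.17).

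Markers of other cell types were measured in the same libraries. On the deposited scaling, used here, their calls stand beside 22.2% of all genes called higher and 28.8% called lower. All 6 oligodendrocyte markers and all 6 precursor markers were called lower, with medians of −1.44 and −3.17. Of 6 border macrophage markers, 2 were called higher and 4 lower, Mrc1 at 0.70 and F13a1 at −0.79. Endothelial markers had 2 of 6 called in each direction, mural cell markers 5 of 6 lower and olfactory ensheathing cell markers 4 of 6 lower. Of these, Kcnj8 and Des, both mural, were at 0 in at least 1 library.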
